A study of Drosophila melanogaster with 16 samples.

Results

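The regions described here were the 10 kb windows of Drosophila chromosome arms 2L, 3L and 3R that no annotated gene touched. A window belonged to the set when it overlapped no gene body of any entry in the isoform table used here and had an input count above 0 in both driver lines. This gave 2074 of the 27949 windows of the genome-wide window table, and 12949 windows of the same arms that overlapped a gene served for comparison. The 2074 gene-free windows were 698 on 2L, 789 on 3L and 587 on 3R. Another 25 windows without a gene had an input count of 0 in at least one line and were left out, and the lowest input count among the windows kept was 1. Windows were placed every 5 kb, so neighbours shared sequence and reads. Overlapping or touching gene-free windows were therefore joined into 600 runs, the longest of 210 kb. A total of 1059 gene-free windows lay 5 kb or more from any gene body.

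Nuclei came from heads of adult flies in which a GAL4 driver expressed unc84-GFP, a tag on the nuclear envelope by which the nuclei were captured. OK107-GAL4 marks mainly the Kenyon cells, which make up the mushroom body, the centre of associative memory in the fly brain. Tdc2-GAL4 marks mainly neurons that release octopamine. R57C10-GAL4 labels all mature neurons and entered only through the genes beside the gene-free runs, since the window table covers OK107 and Tdc2. Each preparation pooled heads of many flies, so a driver line was a pool of nuclei, and a mark carried by fewer nuclei cannot be told apart from a lower level in each nucleus. Micrococcal nuclease-digested chromatin was immunoprecipitated with antibodies to H3K27me3 or H3K27ac and sequenced beside the input chromatin of the same line (ChIP-seq).

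H3K27me3 is the mark that Polycomb repressive complexes place over developmental genes that a cell keeps silent, often over broad domains that run far beyond the genes themselves. H3K27ac occupies the same lysine and marks active promoters and enhancers. Long intervals without genes in the fly genome commonly hold enhancers of the developmental regulators beside them, so they can carry either mark without any transcription unit of their own.

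Summed over all windows, the table held 180701993 H3K27me3, 159274368 H3K27ac and 152095844 input counts for OK107, and 50442901, 117604305 and 141041068 counts for Tdc2, each read falling in about 2 windows. A gene-free window had a median of 7039.5 H3K27me3, 6764 H3K27ac and 6478.5 input counts in OK107, and 2073.5, 5220.5 and 6187.5 counts in Tdc2, and 35 of them had fewer than 200 input counts in a line. The Tdc2 H3K27me3 column was the authors' sum of their 2 libraries, so each mark had 1 value per line. At promoters, ey, a Kenyon cell gene, had a log2 ratio of H3K27ac to input of 2.09 in OK107 and -0.86 in Tdc2, and the Tdc2 gene had 0.12 in OK107 and 1.04 in Tdc2. Of 8 Kenyon cell genes, H3K27ac exceeded input at 7 promoters in OK107 and 5 in Tdc2, and of 3 octopaminergic genes at 1 in OK107 and 3 in Tdc2. Of 4 genes of all neurons, elav, n-syb and brp were above input in both lines, while Syt1 had -0.27 in OK107 and 0.07 in Tdc2. Of 10 glial, photoreceptor and muscle genes, H3K27ac exceeded input at 1 promoter in OK107 (median -1.07, range -2.13 to 0.94) and at 4 in Tdc2 (median -0.50, range -1.49 to 0.62), and the part of these other cells in the window values was not tested.

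The gene-free windows carried more H3K27me3 than windows with genes in both lines. The median log2 ratio to input over gene-free windows was 0.56 in OK107, against -0.06 in windows overlapping a gene. In Tdc2 the medians were 0.28 in gene-free windows and -0.08 in windows overlapping a gene. In OK107, 36.5% of gene-free windows had at least 2-fold more H3K27me3 than input, against 18.6% of windows overlapping a gene, and in Tdc2 the shares were 18.5% and 8.74%. These ratios were computed after TMM scaling, which sets most windows near 0, with 1 count added to every value. The gene-free windows received 19.2% of the H3K27me3 counts of the 3 arms in OK107 and 16.6% in Tdc2, against 12.7% and 13.0% of the input counts, a measure that needs no scaling between libraries and whose 95% Wilson intervals, which cover counting error only, were at most 0.025 percentage points wide.

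**Figure D1:**
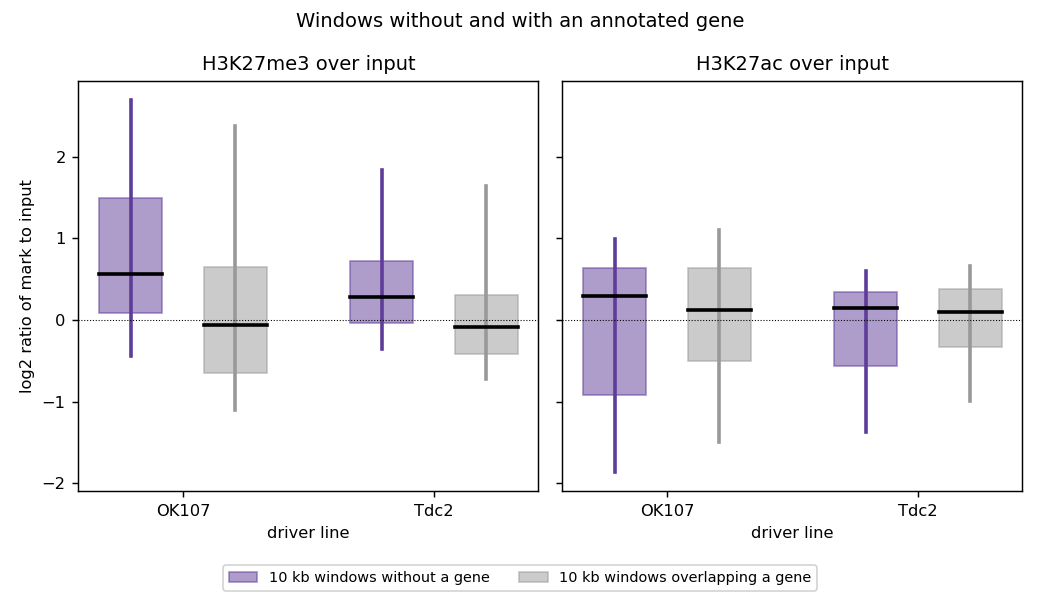
Log2 ratio of H3K27me3 (left) and H3K27ac (right) to input in OK107 and Tdc2, for 10 kb windows of 2L, 3L and 3R without a gene (purple, 2074 windows) and overlapping a gene (grey, 12949 windows). Boxes span the 25th to the 75th percentile, black lines are medians and vertical lines run from the 5th to the 95th percentile; the gene-free medians for H3K27me3 were 0.56 in OK107 and 0.28 in Tdc2, above the grey medians of -0.06 and -0.08.

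Enrichment over input was tested in all windows of the table with edgeR's quasi-likelihood test at a false discovery rate of 0.05, with the driver line as a term. The 2 lines served as the replicates and left 1 residual degree of freedom. A call therefore rested on the mean fold of the lines and did not require that each line moved. For example, the window between CG4328 and CG32105 was called lower in H3K27ac with log2 ratios of -1.66 in OK107 and 0.14 in Tdc2. H3K27me3 was higher than input in 522 of the 2067 gene-free windows tested (25.3%), where 12.7% of all tested windows and 11.6% of windows overlapping a gene were called higher. It was lower than input in 46 gene-free windows (2.23%), where 20.9% of all tested windows and 25.3% of windows overlapping a gene were called lower. Gene-free windows thus fell on the enriched side in most of their calls, while windows overlapping a gene were mostly called depleted. Windows are not replicates, so the difference between these shares was not tested. Scaling by total counts lowered the median log2 fold over all tested windows to -0.42, against 0.04 with TMM. The gene-free median then was -0.05, against 0.41 with TMM. With total counts, 349 gene-free windows were called higher (16.9%, against 7.87% of all tested windows and 7.92% of windows overlapping a gene). Only 14 were called lower (0.677%, against 16.3% and 20.6%).

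The enriched share differed little with distance from genes. H3K27me3 was called higher in 25.0% of the gene-free windows 5 kb or more from any gene body and in 25.5% of those closer to one. Arm 2L had the highest share, 32.5%, against 19.7% on 3L and 24.2% on 3R. Longer runs held an H3K27me3 call more often, in 22 of 51 runs of 45 kb or more (43.1%) and in 50 of 177 runs of a single window (28.2%), but a longer run also had more windows in which a call could fall. Their median levels were alike: 0.61 in OK107 and 0.23 in Tdc2 for the longest class, and 0.64 and 0.29 for single windows. Calls covered some runs whole and others in part. Of 423 runs with at least 2 windows, 72 were called higher in H3K27me3 in every window, 277 in none and 74 in some.

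H3K27ac was called in both directions in gene-free windows. It was higher than input in 710 of 2065 tested windows (34.4%), where 28.8% of all tested windows were called higher, and lower in 609 (29.5%), where 34.0% of all tested windows were called lower. Windows overlapping a gene were called higher in 32.9% and lower in 26.2%. The median log2 ratio of H3K27ac to input in OK107 was 0.30 in gene-free windows and 0.13 in windows overlapping a gene, and in Tdc2 it was 0.15 and 0.09. The lower end reached further in gene-free windows: the 5th percentile was -1.86 in OK107, against -1.49 in windows overlapping a gene, and -1.38 in Tdc2, against -0.99. When the fit held only windows of the large autosomal arms, 2R included, 469 gene-free windows were called higher and 645 lower. The higher calls were then 22.7% of gene-free windows against 25.5% of windows overlapping a gene, so the excess of acetylated gene-free windows did not survive that choice.

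Of the 609 gene-free windows low in H3K27ac, 121 lay within 1 Mb of the centromere end of an arm. Of the 152 tested gene-free windows there, H3K27ac was lower than input in these 121 (79.6%) and higher in 16. Over all 161 gene-free windows there, tested or not, the median log2 ratio was -1.25 in OK107 and -1.21 in Tdc2. H3K27me3 in the 161 windows stayed near input, with medians of 0.18 in OK107 and 0.26 in Tdc2 and 12 windows called higher. Elsewhere on the arms, 694 gene-free windows were called higher in H3K27ac and 488 lower, and 510 were called higher in H3K27me3. The 488 include all 41 windows of a run between CG32230 and AGO3. That run lies just outside the 1 Mb limit, 1005 kb from the centromere end of 3L.

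High H3K27me3 and high H3K27ac seldom met in a gene-free window. H3K27me3 was high and H3K27ac low in 287 windows, 13.9% of the 2065 tested for both, against 6.60% of windows overlapping a gene. Another 204 windows were high in H3K27me3 with no call in H3K27ac. H3K27ac was high with no H3K27me3 call in 633 windows (30.7%). Both marks were called higher in 31 windows in 24 runs, or 1.50%, against 1.24% of windows overlapping a gene. All 46 windows with H3K27me3 below input were called higher in H3K27ac, a group that numbered 14 with total count scaling and 2 with DESeq2. Windows overlapping a gene differed there: of those with H3K27me3 below input, 1504 had no H3K27ac call and 660 were called lower in both marks, combinations that no gene-free window showed.

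**Figure D2:**
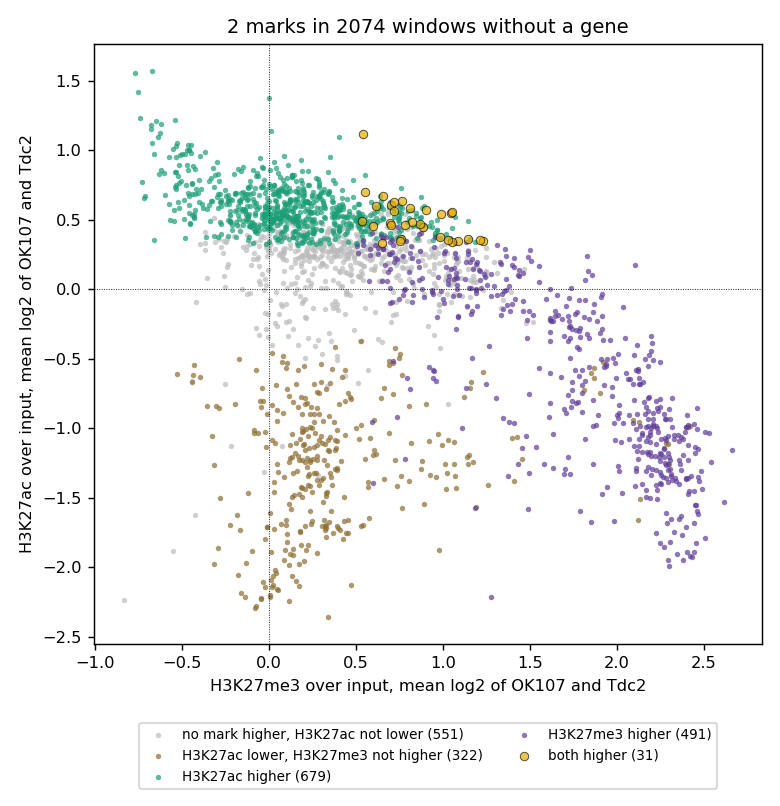
Mean log2 ratio to input over OK107 and Tdc2 of H3K27me3 (horizontal) and H3K27ac (vertical) in each of the 2074 gene-free windows, coloured by edgeR calls at a false discovery rate of 0.05; windows not tested are among the grey ones. Windows high in H3K27me3 run down to the lower right, 31 windows were called higher in both marks, and 322 windows low in H3K27ac without an H3K27me3 call sit at the lower centre.

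Across the 2074 windows, Pearson's r between H3K27me3 and H3K27ac was -0.43 in OK107 and -0.49 in Tdc2 (Spearman's rho -0.46 and -0.57), against -0.31 and -0.38 in windows overlapping a gene. These are descriptions over windows that overlap in sequence and share the input library of their line. With every other window left out, so that none overlapped, r was -0.44 in OK107 and -0.50 in Tdc2.

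Of the 8 named windows richest in H3K27me3, 3 bordered a gene of the Hox and segmentation or identity factor lists, namely opa, Antp and exex. The window 3R:660001-670000 (dm3), between CG14659 and the pair-rule gene opa, held 40504 H3K27me3 counts against 6390 input counts in OK107 and 8693 against 6523 in Tdc2, log2 ratios of 3.06 and 2.16. Its H3K27ac counts were 1846 in OK107 and 2149 in Tdc2, log2 ratios of -1.75 and -1.32. Both lines were far above input in H3K27me3 and below it in H3K27ac. edgeR's quasi-likelihood test gave a log2 fold of 2.61 ± 0.89 (SE) for H3K27me3, with a Benjamini-Hochberg adjusted p of 0.014. The SE beside an edgeR fold was not given by edgeR. It was computed as the absolute log2 fold divided by the square root of the test's F statistic.

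The other windows at the top of the H3K27me3 order had neighbours of several kinds. The window 3L:3875001-3885000 between Awh, a LIM homeodomain gene, and Fie reached log2 ratios of 2.92 in OK107 and 2.17 in Tdc2. The window 3L:7945001-7955000 beside exex, a homeodomain gene of motor neurons, reached 2.94 and 2.02. The window 2L:1955001-1965000 beside erm, a zinc finger gene of neural progenitors, reached 2.90 and 2.11. The Hox gene Antp bordered 3R:2860001-2870000, which reached 2.79 in OK107 and 2.23 in Tdc2 and lay within a run of 9 windows. The window 3R:12230001-12240000 beside ss, a bHLH-PAS gene, reached 2.81 and 2.13, and 3R:715001-725000, between laf and Gnf1 on the other side of opa, reached 2.92 and 2.13. These 6 windows were called higher in H3K27me3 and lower in H3K27ac by edgeR. The remaining window of the top 8, 3R:27895001-27905000, had the highest mean of both lines, lay at the end of the assembled arm beyond Map205 and rested on 421 input counts in OK107 and 495 in Tdc2, with log2 ratios of 2.89 and 2.44.

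The windows lowest in H3K27me3 were called higher in H3K27ac. The window 3R:12040001-12050000 between mtSSB and tara, a transcriptional co-regulator of the trithorax group, had 1763 H3K27me3 counts against 4677 input counts in OK107 and 929 against 4520 in Tdc2. Its log2 ratios of H3K27me3 were -1.01 in OK107 and -0.53 in Tdc2. Its H3K27ac counts were 15184 in OK107 and 9537 in Tdc2, log2 ratios of 1.74 and 1.36. edgeR's fold on the log2 scale was -0.77 ± 0.20 (SE, adjusted p = 0.0011) for H3K27me3 and 1.56 ± 0.24 (SE, adjusted p = 1.3e-09) for H3K27ac. Another 3 intervals showed the same opposition, all on 3L: Ir68a to scyl, with H3K27me3 at -0.84 in OK107 and -0.64 in Tdc2, and the intervals on both sides of CG43245, with -0.79 and -0.67 on the side of NijA and -0.67 and -0.76 on the side of CG12523.

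H3K27ac peaked in windows beside genes of several kinds. The window 3R:5905001-5915000 between CG5361 and the microRNA gene mir-317 had 8997 H3K27ac counts against 2757 input counts in OK107 and 8137 against 3795 in Tdc2, log2 ratios of 1.75 and 1.39. Its neighbour CG5361 was itself covered by H3K27me3, at 2.91 over the gene body in OK107 and 2.34 and 1.90 in the 2 Tdc2 libraries, whereas the window stood at -0.79 in OK107 and -0.56 in Tdc2. The window 2L:9660001-9670000 between CG33299 and Pka-C1, a catalytic subunit of protein kinase A, had H3K27ac ratios of 1.64 in OK107 and 0.79 in Tdc2. The window 3L:805001-815000 between CG13898 and CG13900 had 1.77 and 0.98. Windows between CG11726 and CG7560 (1.45 and 0.97), NijA and CG43245 (1.52 and 0.85), Ir68a and scyl (1.58 and 0.89) and CG5290 and CG43173 (1.27 and 0.99) completed the top 8 with the tara window, and edgeR called all 8 higher than input.

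The nearest gene on each side was compared with the run between them, using H3K27me3 over gene bodies in the isoform table. The 600 runs had 1015 flanking genes among 9416 genes of the 3 arms. The 337 genes beside the 196 runs with an H3K27me3-called window had median log2 ratios of 2.01 in OK107 and 1.27 and 1.29 in the 2 Tdc2 libraries, and 1.81 and 2.14 in the 2 R57C10 libraries of all mature neurons, which the window calls did not use. Genes beside the other 404 runs had medians of 0.62 in OK107, 0.36 and 0.35 in Tdc2, and 0.53 and 0.78 in R57C10. All genes of the arms had medians of -0.07 in OK107, 0.01 and 0.02 in Tdc2, and -0.18 and -0.15 in R57C10. At least 1 flanking gene was 2-fold above input in OK107 and both Tdc2 libraries for 146 of the 196 called runs (74.5%) and for 33 of the other 404 (8.17%). The median of a run and the higher of its 2 flanking genes had a Pearson's r of 0.89 in OK107 and of 0.80 in the first Tdc2 library (Spearman's rho 0.89 and 0.75, 600 runs), values that share their libraries and inputs. Thus the H3K27me3 of a gene-free run and that of its neighbours went together in these libraries.

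Genes beside gene-free runs had little H3K4me3, the mark of active promoters. Their median log2 promoter ratios were -2.59 in OK107, -0.95 in Tdc2, and -2.07 and -3.51 in R57C10. All genes of the arms had -1.28 in OK107, -0.48 in Tdc2, and -0.77 and -1.88 in R57C10.

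Runs were then grouped by lists of flanking genes, and the lists are described by counts without a test between them. Of 53 homeodomain and other identity factor genes on the 3 arms, 35 bordered a gene-free run (66.0%), where 10.8% of all 9416 genes did. These genes encode the transcription factors that set the identity of neurons and other cells. Their 39 runs included 37 with an H3K27me3-called window (94.9%), where 32.7% of all 600 runs had one. Of their 154 windows, 138 were called higher (89.6%, against 25.3% of all gene-free windows). Median H3K27me3 over these windows was 2.54 in OK107 and 1.58 in Tdc2, and median H3K27ac was -1.19 and -0.68. H3K27ac was called lower in 129 windows (83.8%, against 29.5% of all gene-free windows) and higher in 0. Apart from the dmrt99B run described further on, the highest after exex lay beside mid (2.83 in OK107, 2.03 in Tdc2), fkh (2.82, 2.01), C15 (2.80, 2.09), Dr (2.79, 1.99) and ham (2.79, 1.97), all genes of developmental transcription factors.

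Hox and segmentation genes pattern the embryo along its axis. Of 26 on the arms, 14 bordered a run (53.8%, against 10.8% of all genes). Of their 19 runs, 14 held an H3K27me3-called window (73.7%, against 32.7% of all runs). Of 68 windows, 33 were called higher in H3K27me3 (48.5%, against 25.3% of all gene-free windows). H3K27ac was called lower in 62 (91.2%, against 29.5%). The H3K27me3 medians were 1.77 in OK107 and 1.28 in Tdc2. The runs Antp to Sodh-1, slp2 to CG3964, E5 to ems, Glut3 to abd-A and sob to odd had medians of 2.70 to 2.77 in OK107. Runs beside h, the hairy gene, were far lower, at 0.29 and 0.74 in OK107 and 0.26 and 0.65 in Tdc2, and none of their 9 windows was called higher in H3K27me3. Runs beside knrl and kni, genes of the nuclear receptor type, held only 1 called window among 22, though H3K27ac was called lower in all 22. The H3K27me3 count for this group moved with the method, to 57 of 68 windows with DESeq2 (83.8%, against 31.8% of all gene-free windows).

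Genes of neural progenitors bordered 3 runs, and all 3 held H3K27me3-called windows, where 32.7% of all runs held one. The first lay beside wor, a zinc finger gene whose run also counts among the identity factors (1.72 in OK107, 1.36 in Tdc2). The others lay beside pros, a homeodomain gene that ends progenitor divisions (1.61, 1.62), and numb, a Notch inhibitor (1.22, 1.01). Genes of signalling pathways bordered 9 runs, of which 4 held a called window (44.4%, against 32.7% of all runs). These included both runs beside wg, which encodes a Wnt ligand and is also on the segmentation list. The window beside fz2, which encodes a Wnt receptor, was called higher in both marks, with H3K27me3 at 1.23 in OK107 and 0.39 in Tdc2 and H3K27ac at 0.69 and 0.48. Of the 23 windows of the signalling group, edgeR called 7 higher in H3K27me3 (30.4%), near the 25.3% of all gene-free windows. DESeq2 called 19 (82.6%, against 31.8% of all gene-free windows).

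Most of the adhesion and axon guidance genes listed encode surface proteins by which neurons recognise each other. Of 50 listed genes on the arms, 34 bordered a run (68.0%). Of their 45 runs, 13 held an H3K27me3-called window (28.9%, near the 32.7% of all runs) and 24 an H3K27ac-called one (53.3%), which 264 of all 600 runs held (44.0%). H3K27ac was higher than input in 79 of 193 windows (40.9%, against 34.4% of all gene-free windows) and lower in 2. When only the large autosomal arms were fitted it was higher in 47 (24.4%), near the 22.7% of all gene-free windows in that fit. H3K27me3 was higher in 27 windows (14.0%, against 25.3% of all gene-free windows). Total count scaling gave 3 (1.55%, against 16.9%) and DESeq2 47 (24.4%, against 31.8%), so these shares were below those of all gene-free windows. The runs beside dpr5, between dpr5 and dpr4 and beside CG17230, reached H3K27ac medians of 0.96 and 0.92 in OK107 and 0.43 and 0.60 in Tdc2. The run beside tey, whose product acts in the choice of muscle targets by motor axons, had the highest H3K27me3 in this group, 2.77 in OK107 and 2.08 in Tdc2. All windows were also called higher in H3K27me3 in the runs beside beat-IIIc (1.82 in OK107, 0.51 in Tdc2), beat-Ia (1.61, 0.89) and dpr3.

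Ion channel and transmitter receptor genes bordered 13 runs, and none of their 30 windows was called higher in H3K27me3 by edgeR, while DESeq2 called 1. H3K27ac was called higher in 16 of the 30 windows (53.3%, against 34.4% of all gene-free windows) and in 9 of the 13 runs (69.2%, against 44.0% of all runs), and lower in 6 windows, all beside nAcRalpha-80B. The fit on the large autosomal arms called 11 higher (36.7%, against 22.7%) and 8 lower. The run beside Rdl, a GABA receptor gene, had H3K27ac medians of 1.03 in OK107 and 0.46 in Tdc2, and the run beside the potassium channel gene Shaw had 0.85 and 0.32. Chemosensory receptor and odorant-binding genes bordered 19 runs, of which 13 held an H3K27ac-called window (68.4%, against 44.0% of all runs) and 2 an H3K27me3-called one (10.5%, against 32.7%), beside Obp99d and Ir92a. H3K27ac was higher in 27 of their 62 windows (43.5%, against 34.4% of all gene-free windows). It was higher in 17 with the fit on the large autosomal arms (27.4%, against 22.7%). Of 25 ribosomal protein genes on the arms, 2 bordered a gene-free run, and of 20 cuticle protein genes, 1.

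**Figure D3:**
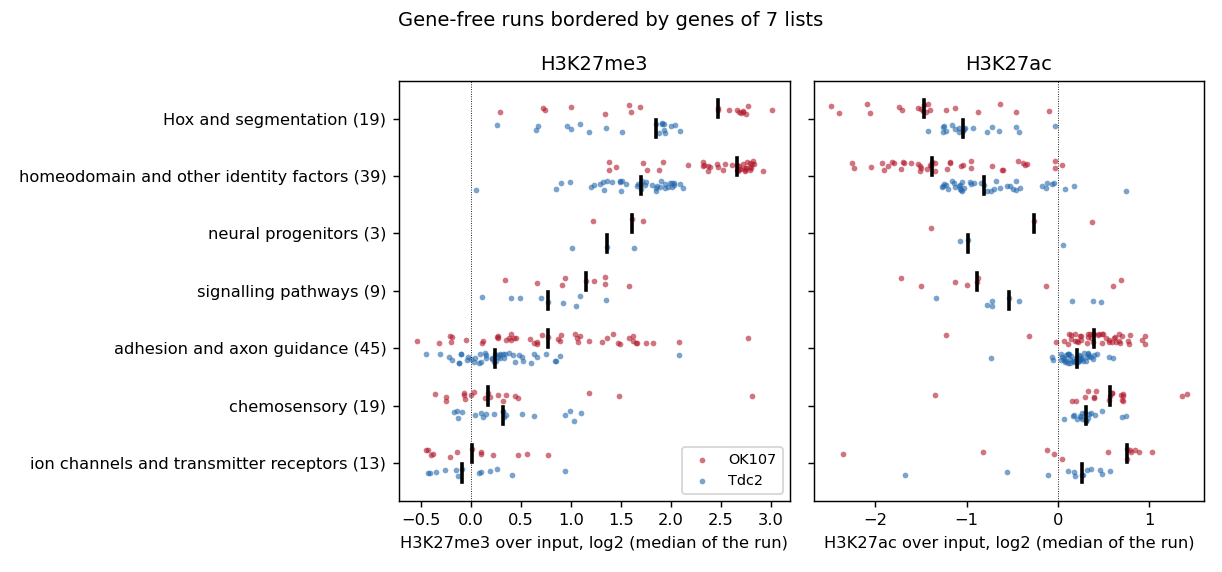
Median log2 ratio to input of H3K27me3 (left) and H3K27ac (right) in each gene-free run bordered by a gene of 7 lists, with OK107 in red above Tdc2 in blue; black ticks are medians over the runs and the number of runs stands in parentheses. Runs beside homeodomain and other identity factors lie at high H3K27me3 and low H3K27ac in nearly every case, and runs beside ion channel and receptor genes lie between -0.45 and 0.76 in H3K27me3 in OK107.

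The 8 longest runs held long stretches with either mark or with little of both. The longest, 3L:23335001-23545000, spans 210 kb between CG32230 and AGO3, a gene of the piRNA pathway, about 1 Mb from the centromere end. All 41 of its windows were called lower in H3K27ac, with medians of -2.12 in OK107 and -1.60 in Tdc2, and H3K27me3 stayed at 0.04 and 0.19. The runs nvd to mRpS5 (135 kb) and CG17698 to CG40470 (85 kb), still closer to the centromere of 3L, were alike, with H3K27ac at -1.80 and -1.83 in OK107 and -1.53 in Tdc2 for both. The nvd run rested on median input counts of 681 in OK107 and 807 in Tdc2, a low depth for these windows.

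The run vvl to Prat2, 3L:6790001-6905000, was the longest covered by H3K27me3. It spans 115 kb beside vvl, which encodes a POU domain factor. H3K27me3 had a median ratio of 2.60 in OK107 (range 2.38 to 2.80 over 22 windows) and of 1.23 in Tdc2 (1.08 to 1.77), and 20 windows were called higher. H3K27ac was at -1.21 in OK107 (-1.67 to -0.68) and -0.11 in Tdc2 (-0.64 to 0.14), and 19 windows were called lower. The run between the cell death genes grim and rpr, 3L:18300001-18390000, carried less H3K27me3, 1.47 in OK107 and 0.64 in Tdc2, with 11 of 17 windows called higher, and its H3K27ac was 0.25 and -0.01.

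The remaining 3 long runs held windows called higher in H3K27ac. In 3R:10750001-10840000, between CG3837 and CG14861, 16 of 17 windows were called higher in H3K27ac, with medians of 0.76 in OK107 and 0.35 in Tdc2. In 2L:12825001-12910000, beside the leucine-rich repeat gene kek1, 12 of 16 windows were called, at 0.67 and 0.24. The 110 kb run beside bru-3, a gene for an RNA-binding protein, had 8 of 21 windows called higher in H3K27ac, with medians of 0.52 in OK107 and 0.30 in Tdc2. Its H3K27me3 was 0.77 in OK107 and -0.13 in Tdc2, with no window called.

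**Figure D4:**
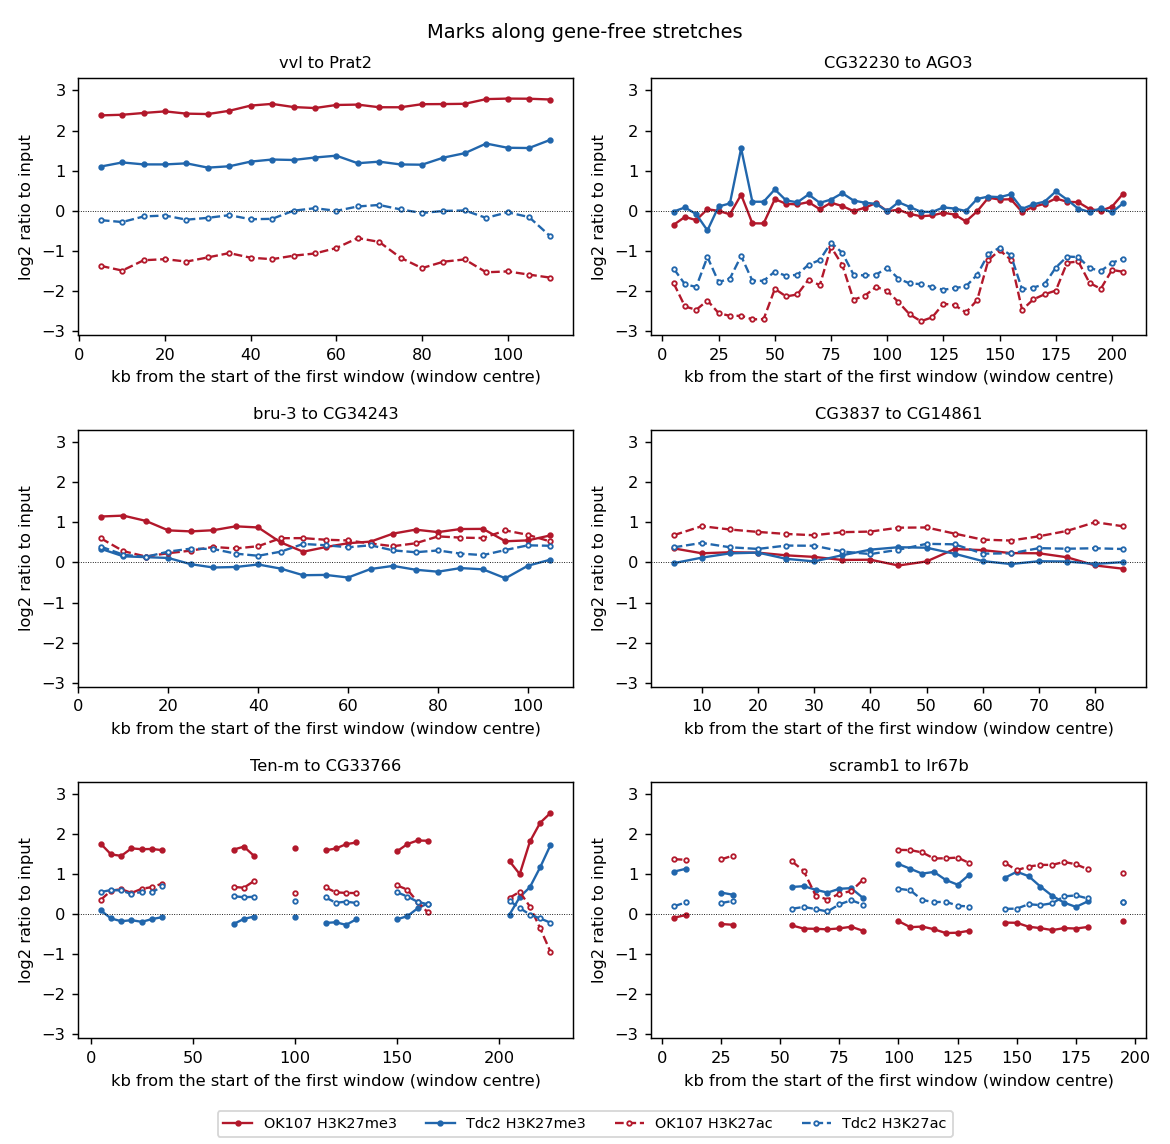
Log2 ratio to input along gene-free stretches, plotted against the distance in kb of each window's centre from the start of the first window, for H3K27me3 (solid lines) and H3K27ac (dashed lines) in OK107 (red) and Tdc2 (blue); gaps are stretches with genes. The vvl to Prat2 run is high in H3K27me3 throughout, and CG32230 to AGO3 is low in H3K27ac throughout. Ten-m to CG33766 has H3K27me3 in OK107 and almost none in Tdc2 until its last run. In scramb1 to Ir67b all 27 windows have more H3K27me3 in Tdc2. The last 2 stretches were picked around windows named for their line difference.

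OK107 and Tdc2 were compared window by window, with no test, since each side had 1 value. The ratios of Tdc2 were narrower as a whole: over windows of the 3 arms the SD of the log2 ratio was 1.03 in OK107 and 0.66 in Tdc2 for H3K27me3, and 0.82 and 0.53 for H3K27ac. Across gene-free windows the lines had a Pearson's r of 0.77 for H3K27me3 and 0.91 for H3K27ac (Spearman's rho 0.64 and 0.86), against 0.85 and 0.92 in windows overlapping a gene. Among 2039 gene-free windows with at least 200 input counts in both lines, H3K27me3 was at least 2-fold higher in OK107 than in Tdc2 in 386 (18.9%), where 9.41% of all windows were, and 2-fold lower in 27 (1.32%), where 0.753% were. The median log2 difference was 0.35 in gene-free windows and -0.04 in windows overlapping a gene. These values compare scaled H3K27me3 counts. With total count scaling 126 gene-free windows were 2-fold higher (6.18%, against 3.11% of all windows) and 107 lower (5.25%, against 7.28%). The median was then -0.07 in gene-free windows and -0.46 in windows overlapping a gene. Higher and lower gene-free windows were thus nearly equal in number, while the higher share stayed above that of all windows. Ratios to input gave 341 higher (16.7%, against 8.29% of all windows) and 16 lower (0.785%, against 0.365%). These ratios set to a common spread in both lines gave 169 higher (8.29%, against 5.56%) and 66 lower (3.24%, against 2.55%). Their median in gene-free windows was 0.03.

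More gene-free windows passed a fixed 2-fold ratio of H3K27me3 to input in OK107, the line with the wider ratios. A ratio of at least 2-fold was reached in both lines by 366 windows (17.6%), in OK107 alone by 392 (18.9%) and in Tdc2 alone by 18 (0.868%). The windows 2-fold in both lines had median H3K27me3 of 2.55 in OK107 and 1.69 in Tdc2, and H3K27ac of -1.27 and -0.74. Those 2-fold in OK107 alone had an intermediate level, 1.45 in OK107 and 0.36 in Tdc2, still above input there, and their H3K27ac was above input in both lines, with medians of 0.26 and 0.20. H3K27ac was called higher in 103 of these 392 windows and lower in 23, where 34.4% of all gene-free windows were called higher and 29.5% lower. Both shares were thus below those of all gene-free windows, the lower calls by far more. Of the 366 windows 2-fold in both lines, 0 were called higher in H3K27ac and 296 lower. The 260 genes beside these OK107-only windows had median gene-body H3K27me3 of 1.71 in OK107, 0.65 and 0.68 in the Tdc2 libraries, and 1.25 and 1.60 in R57C10, above input in all mature neurons too. Windows overlapping a gene split in the same way at lower shares: 8.35% in both lines, 10.3% in OK107 alone and 0.394% in Tdc2 alone.

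**Figure D5:**
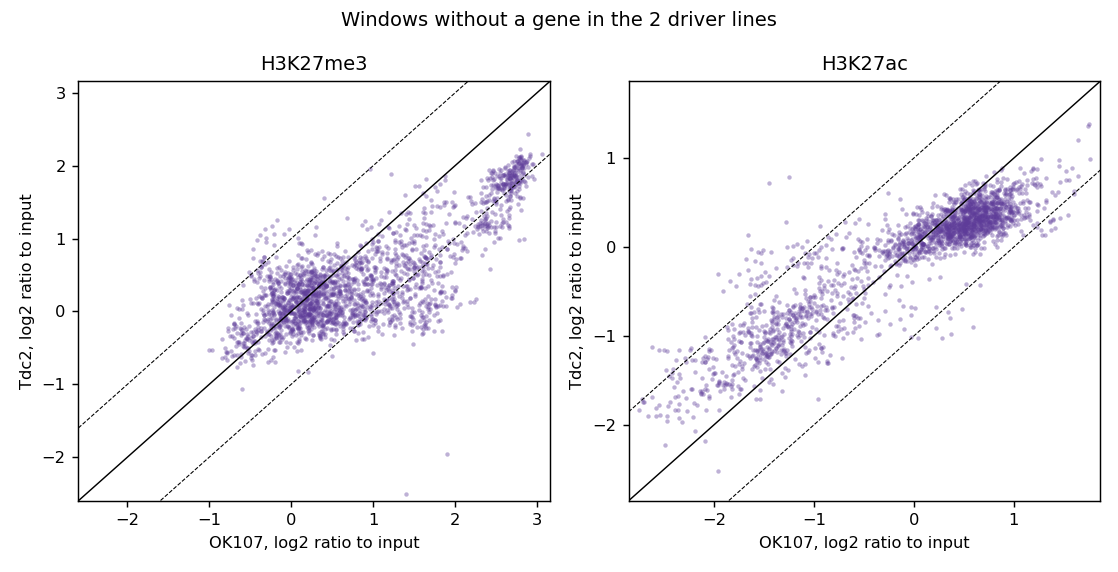
Log2 ratio to input in OK107 (horizontal) and Tdc2 (vertical) of H3K27me3 (left) and H3K27ac (right) in the 2074 gene-free windows; the solid line marks equal ratios and dashed lines a 2-fold difference. For H3K27me3 a cloud of windows lies between 1 and 2 in OK107 and near 0 in Tdc2, and a separate group is high in both lines.

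Among windows with at least 200 input counts, the largest difference in scaled H3K27me3 counts lay beside dmrt99B, a gene of the doublesex-related transcription factor family. The window 3R:25525001-25535000, between dmrt99B and Obp99d, had 43083 H3K27me3 counts against 7940 input counts in OK107 and 3633 against 6107 in Tdc2, a 4.43-fold difference after scaling. Its log2 ratios of H3K27me3 to input were 2.84 in OK107 and 1.00 in Tdc2, above input in both lines. The difference of these ratios was 1.84, below the 2.11 of the CG43438 to Mst33A window. With the spread matched it was 1.22 against 2.18. H3K27ac ran the other way, with 2823 counts in OK107 and 8230 in Tdc2, log2 ratios of -1.45 and 0.72. Both neighbours were covered in R57C10 as well, dmrt99B at 3.14 and 3.56 and Obp99d at 3.15 and 3.58 in its 2 libraries. This window had the largest difference of H3K27ac too, -2.16 on the log2 scale, and edgeR called it higher in H3K27me3 across both lines only narrowly (adjusted p = 0.049).

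A 230 kb stretch of 3L from Ten-m, which encodes a synaptic teneurin, to CG33766 held H3K27me3 in OK107 that Tdc2 lacked. In its 6 runs the 24 windows had a median of 1.64 in OK107 (range 1.00 to 2.52) and of -0.09 in Tdc2 (-0.27 to 1.72), and the 2 lines drew together only in the run next to CG33766. H3K27ac was above input at the median in both lines, 0.55 and 0.42. The stretch was picked around windows named for their H3K27me3 difference. The window 3L:22525001-22535000 between mir-957 and CG11404 had 19247 H3K27me3 counts against 7585 input counts in OK107 and 1647 against 6662 in Tdc2, and 3L:22470001-22480000, between CG11425 and CG43312, had 23284 against 10057 and 2085 against 8299. OK107 was about 4-fold higher in both, 4.37 and 4.17 after scaling. In R57C10 the genes mir-957 and CG11404 had gene-body ratios of 1.17 to 1.38. The Ten-m gene body had 1.09 in OK107 and 0.66 and 0.94 in R57C10, and was close to input in both Tdc2 libraries.

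Other intervals with more H3K27me3 in OK107 lay on 2L. The window 2L:2390001-2400000 lay next to VGlut, the vesicular glutamate transporter gene. It had 27157 H3K27me3 counts against 6640 input counts in OK107 and 2482 against 5589 in Tdc2, a 4.09-fold difference after scaling. Its log2 ratios of H3K27me3 were 2.43 in OK107 and 0.58 in Tdc2, above input in both lines. Its H3K27ac ratios were -0.14 in OK107 and 0.54 in Tdc2. The window 2L:795001-805000 between Pkg21D, which encodes a cGMP-dependent protein kinase, and Nnf1b had ratios of 1.78 in OK107 and -0.03 in Tdc2. The window 2L:11570001-11580000 between CG43438 and Mst33A had 1.84 and -0.27, and the next runs towards kek2 stayed at 1.49 and 0.71 in OK107 and -0.45 and -0.32 in Tdc2.

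Windows with less H3K27me3 in OK107 were few, and 4 of the 6 named lay in one 200 kb stretch around the microRNA genes mir-276a and mir-276b. In the 6 runs from scramb1 to Ir67b, which also include the odorant receptor genes Or67c and Or67d, all 27 windows had less H3K27me3 and more H3K27ac in OK107. H3K27me3 had a median of -0.33 in OK107 (range -0.47 to -0.02) and 0.69 in Tdc2 (0.18 to 1.25). The stretch was picked around windows named for this difference, and neighbouring windows overlap, so its uniformity is no independent evidence. The runs next to it, ect to CG8065 and Ir67c to Gem3, had medians of 0.27 and 0.02 in OK107 and 0.02 and 0.19 in Tdc2. H3K27ac had a median of 1.27 in OK107 and 0.27 in Tdc2. The window 3L:10345001-10355000 between mir-276b and mir-276a had 2433 H3K27me3 counts against 4275 input counts in OK107 and 3243 against 5492 in Tdc2, although the OK107 library was the deeper one, a 3.56-fold difference after scaling. Its H3K27ac counts were 10027 in OK107 and 5140 in Tdc2. The Or67c gene body had H3K27me3 at 0.73 in OK107, 1.12 and 1.07 in Tdc2, and 0.05 and 0.18 in R57C10. The other 2 intervals of this kind, nudE to CG34356 and CG10479 to CG32406, both on 3L, had ratios of -0.37 and -0.18 in OK107 and 0.61 and 0.60 in Tdc2.

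H3K27ac differed 2-fold between the lines in few gene-free windows. It was higher in OK107 in 21 of 2039 (1.03%), where 0.335% of all windows were, and lower in 54 (2.65%), where 2.01% were. With the spread of the lines matched, 31 were higher in OK107 (1.52%, against 1.32% of all windows) and 31 lower (1.52%, against 0.604%). The higher share was then near that of all windows. The largest excess in OK107 lay in 3R:7135001-7145000 between CR31386 and pros, with 8785 H3K27ac counts in OK107 and 2688 in Tdc2 over inputs of 6018 and 6119, log2 ratios of 0.59 and -0.90. H3K27me3 was present there in both lines, at 1.56 in OK107 and 1.72 in Tdc2. The window 2L:16380001-16390000 between jhamt, the juvenile hormone acid methyltransferase gene, and CG5888 was alike, with H3K27ac at 0.48 and -0.70 and H3K27me3 at 1.88 and 1.86. In both places acetylation differed more than 2-fold between the lines, while the scaled H3K27me3 counts differed 1.20-fold and 1.04-fold. With the spread of the lines matched, however, the H3K27me3 differences became -1.18 and -1.08 on the log2 scale, lower in OK107 by more than 2-fold.

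The 4 named windows with less H3K27ac in OK107, the dmrt99B window among them, all had more H3K27me3 in OK107. The window 3L:12290001-12300000 between CG4328 and CG32105, both LIM homeodomain genes, had H3K27ac counts of 2206 in OK107 and 5229 in Tdc2, log2 ratios of -1.66 and 0.14, and H3K27me3 ratios of 2.48 and 0.96. In vvl to Prat2, the window 3L:6885001-6895000 had H3K27ac at -1.51 in OK107 and -0.04 in Tdc2, with H3K27me3 at 2.80 and 1.57. In the run beside trh, which encodes a bHLH-PAS factor of tracheal cells, 3L:415001-425000 had H3K27ac at -1.83 in OK107 and -0.39 in Tdc2, with H3K27me3 at 2.87 and 1.72. All 3 windows carried H3K27me3 above input in Tdc2 as well.

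Not every gene-free interval is free of transcription units in a later annotation. In the RefSeq annotation of Release 6, used for names and order only, both flanking genes were found in the same order for 575 of the 600 runs. For 296 of these, 552 entries lay wholly between the flanking genes, 502 of them long non-coding RNAs and 27 protein-coding genes. Entries that overlapped a flanking gene were not counted. Runs with such an entry and runs without one had the same median H3K27ac to within 0.01, 0.33 in OK107 for both and 0.18 and 0.17 in Tdc2. Median H3K27me3 was 0.63 in OK107 and 0.28 in Tdc2 in runs with an entry, against 0.51 and 0.22 in runs without one. An H3K27ac-called window was present in 142 of the 296 runs with an entry (48.0%) and in 112 of the 279 without (40.1%), but the first were also longer, with a median of 20 kb against 15 kb.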

How the data were processed

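The deposited values were raw read counts that the authors made in 10 kb windows and, for flanking genes, over gene bodies and promoters of isoforms, per the file headers; positions are dm3. Base calling used CASAVA 1.8, alignment Bowtie 0.12.7 and counting bedtools 2.15, per the submitters' processing notes. How reads matching more than one place were handled is not given in the sources used here, which bears most on repeats near centromeres. The window table's Tdc2 H3K27me3 column pools 2 libraries (its counterpart equals their sum in all 25701 isoform rows), so the planned test of OK107 against Tdc2 was replaced by values and 2-fold counts. Another 61 sample columns were not used.

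Windows were fitted with edgeR 4.0.16 (R 4.3.3), TMM scaling, and terms for line and ChIP against input, over all windows passing edgeR's default filter, with Benjamini-Hochberg adjustment; the fit was tested on simulated data. Ratios are log2 after adding 1 count. OK107 against Tdc2 used scaled H3K27me3 counts, and ratios to input for H3K27ac. Each gene was represented by the isoform with the most counts of the mark, summed over libraries. Members, gene lists and tests were chosen with earlier results of these data known. Named windows had at least 200 input counts and represented 1 run each: the 8 highest and 4 lowest in H3K27me3, the 8 highest in H3K27ac, the 6 and 4 largest differences in each direction in H3K27me3 and H3K27ac, the 8 longest runs, and list genes by ratio. Alternatives were DESeq2 1.42.0, other scalings, filters, pseudocounts and window sets.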

Additional observations from a re-analysis of the deposited data

Results flagged for a closer look

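In 18 named gene-free windows a mark was above input in one line and below it in the other; the difference between the lines was not tested, since each side had 1 value. H3K27me3 was above input in OK107 and below it in Tdc2 in 4 of them. Its log2 ratio in OK107 exceeded that in Tdc2 by 2.01 between mir-957 and CG11404, by 1.86 between CG11425 and CG43312, by 1.81 between Pkg21D and Nnf1b, and by 2.11 between CG43438 and Mst33A.

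H3K27me3 was below input in OK107 and above it in Tdc2 in 9 windows of 7 intervals, all on 3L. The difference was -1.40 and -1.20 in the 2 windows between mir-276b and mir-276a, -1.27 between mir-276a and CG12362, -1.15 between scramb1 and Or67c, -1.06 and -0.96 in the 2 windows between Or67d and mir-276b, -0.99 between CG13898 and CG13900, -0.98 between nudE and CG34356, and -0.78 between CG10479 and CG32406.

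H3K27ac had opposite signs in the remaining 5. OK107 minus Tdc2 was 1.49 between CR31386 and pros, 1.18 between jhamt and CG5888, -2.16 between dmrt99B and Obp99d, -1.80 between CG4328 and CG32105, and -0.69 between CG3557 and VGlut.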

How the results depend on the processing

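Of the counts and medians recomputed, 60 values stayed within 1.5 times the main count or close to the main median, 21 moved further and 1 changed sign; for single windows 96 stayed and 4 moved. With total count scaling the median H3K27me3 ratio was -0.091 in OK107 and 0.012 in Tdc2, the H3K27ac median in OK107 was 0.19, 14 windows were lower in H3K27me3 than input, and 126 and 107 were 2-fold higher and lower in OK107. DESeq2 called 658 higher and 2 lower in H3K27me3. With every other window, fewer by construction, the counts were 267 and 23 (H3K27me3 over input, higher and lower), 356 and 301 (H3K27ac), 202 and 13 (H3K27me3 between lines) and 10 and 29 (H3K27ac between lines). A fit on the large autosomal arms gave 22 lower in H3K27me3 and 469 higher in H3K27ac. Dividing by inputs gave 16 windows 2-fold lower in H3K27me3 in OK107, and H3K27ac without inputs gave 7 higher in OK107. Matching the spread of the lines, chosen after seeing the data, gave 169 and 66 for H3K27me3 and 31 lower for H3K27ac. Apart from the every-other-window counts and the spread matching, the cause was not tested. Leaving out a Tdc2 H3K27me3 library, a fit on Tdc2 alone and DESeq2 between the lines could not be run on the pooled column. No paired analysis was possible because the window table holds 1 value per mark and line, and the labels number replicates in groups that it pools or does not hold.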
